A study of Mus musculus with 16 samples.

Results

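The genes described here are 43 mouse genes that carry the transforming growth factor beta (TGF-beta) and bone morphogenetic protein (BMP) signal. They were taken by symbol from a list of the pathway's parts, chosen with earlier results of these data known. The shares of members that passed are therefore not those of a blind choice. The genes are 9 ligands, 5 matrix binders or proteases, 11 receptors, 6 Smads, 8 inhibitors and 4 Id target genes. All 43 were found among the 22572 gene names of the deposited table, and 42 averaged 1 FPKM or more across all 16 libraries and were tested. Of these, 39 passed that filter in both genotypes, while Bmp2, Bmp5 and Smad6 passed it only through the BgnKO libraries. The exception was Ltbp2, a latent TGF-beta binding protein, at a mean of 0.03 FPKM. FPKM is a count of fragments divided by transcript length in kilobases and by library size, so levels can be compared between genes.

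Polyadenylated RNA of whole hippocampus was sequenced from male C57BL/6 mice in 4 groups of 4 libraries. WT mice had an intact Bgn gene and drank plain water or water that held fructose at 15% (w/v). BgnKO mice, written Bgn0/- in the labels, drank the same, and as Bgn is X-linked males carry 1 copy. The mice were 3 months old at the start and the drinks were given for 6 weeks. Biglycan, the product of Bgn, is a matrix proteoglycan known to bind TGF-beta and BMPs. No Cre driver or cell-type restriction is named in the labels. Nothing in the labels says which part of Bgn was removed, or whether each replicate was a different mouse. The p-values then describe only how much these libraries vary, which may be technical.

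Ligands of this family are secreted dimers that bind a type II and a type I receptor serine kinase. TGF-betas are secreted in a latent complex held in the matrix by latent TGF-beta binding proteins, and signal through Smad2 and Smad3. BMPs signal mainly through Smad1, Smad5 and Smad9. Both groups of Smads enter the nucleus with Smad4. Smad6 and Smad7 are induced by the signal and inhibit it, and the Id genes, which encode inhibitors of basic helix-loop-helix transcription factors, are classical BMP targets. In the adult hippocampus BMP signalling is known for holding neural stem cells of the dentate gyrus in quiescence.

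The promoters of the members that differed between genotypes are shown first, because these genes are the base of the results. RefSeq promoter windows on GRCm38.p6, from 250 bases before to 50 bases after the start, were at hand for 29 of the 43 genes, and for 5 of the 6 genes called below. The starts are those of RefSeq. The printed stretches of Id2, Bmpr1a and Id3 lie inside the GENCODE gene spans given below, which begin further upstream. In each sequence the capitals mark a match, on either strand, to the motif named with it. Smad6 (chr9:64022035-64022309, minus strand, through base 25 of the transcript), with the palindrome GTCTAGAC from position -4 to 4 around the start; Id2 (chr12:25096093-25096342, minus strand) and Bmpr1a (chr14:34502547-34502796, minus strand), with GGCGCC; Id3 (chr4:136143572-136143821, plus strand), with neither GTCTAGAC, GGCGCC nor CAGACA; and Tgfb2 (chr1:186705990-186706239, minus strand), with CAGACA, read:
Smad6: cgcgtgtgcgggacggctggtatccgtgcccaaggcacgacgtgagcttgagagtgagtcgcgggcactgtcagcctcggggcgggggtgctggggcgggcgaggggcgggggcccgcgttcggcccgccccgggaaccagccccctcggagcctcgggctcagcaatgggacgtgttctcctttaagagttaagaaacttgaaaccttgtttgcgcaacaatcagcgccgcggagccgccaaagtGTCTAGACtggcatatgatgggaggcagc
Id2: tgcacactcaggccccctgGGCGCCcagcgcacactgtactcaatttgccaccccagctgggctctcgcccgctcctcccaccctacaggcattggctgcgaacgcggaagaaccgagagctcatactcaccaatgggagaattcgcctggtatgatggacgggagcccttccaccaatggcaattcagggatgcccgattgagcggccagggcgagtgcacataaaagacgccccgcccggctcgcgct
Bmpr1a: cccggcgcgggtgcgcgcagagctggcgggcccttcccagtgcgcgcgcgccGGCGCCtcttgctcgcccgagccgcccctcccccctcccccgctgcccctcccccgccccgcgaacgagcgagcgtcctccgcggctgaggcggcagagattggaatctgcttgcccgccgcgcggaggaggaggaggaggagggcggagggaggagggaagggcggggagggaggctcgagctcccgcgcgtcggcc
Id3: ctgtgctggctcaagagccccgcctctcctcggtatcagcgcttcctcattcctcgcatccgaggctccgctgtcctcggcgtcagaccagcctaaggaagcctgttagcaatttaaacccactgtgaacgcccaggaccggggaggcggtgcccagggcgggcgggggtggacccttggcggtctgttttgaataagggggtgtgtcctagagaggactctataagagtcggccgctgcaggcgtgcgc
Tgfb2: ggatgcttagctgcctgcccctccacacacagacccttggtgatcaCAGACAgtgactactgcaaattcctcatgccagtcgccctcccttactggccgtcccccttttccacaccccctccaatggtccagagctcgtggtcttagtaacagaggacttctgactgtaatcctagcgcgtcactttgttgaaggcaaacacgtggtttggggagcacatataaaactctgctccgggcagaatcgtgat
GTCTAGAC, the palindromic Smad-binding element, was present in 1 of 37 member windows (2.70%) and in 0.213% of all 32851 windows. GGCGCC, the core of a BMP-type Smad site, was present in 35.1% of member windows and in 11.9% of all windows. The related GGAGCC, not put in capitals, was present in 56.8% and 30.8%, Smad6, Id2 and Id3 included. The motif CAGACA was present in 21.6% and 21.0%, and GTCT, which lies inside GTCTAGAC, in 83.8% and 88.0%. The member windows were richer in G and C, with a median of 66.3% against 52.7%. A match is a description of these letters and not a site.

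Some features of the libraries touch several results. Bgn itself, the targeted gene, was lower in BgnKO, at 6.50 ± 1.14 FPKM (SD, n = 8) against 16 ± 6.42 FPKM in WT (exact two-sided permutation p = 0.00109). The library labelled WT fructose replicate 1 had 5.42 FPKM of Bgn, inside the BgnKO range of 4.46 to 7.60. That library also had the lowest sums of choroid plexus markers (239 FPKM against 816 to 9292 in the others) and of meningeal and fibroblast markers (48.7 against 89.3 to 496), while BgnKO fructose replicate 4 had the highest of both. Replicate 1 of every group stood apart from replicates 2 to 4, with a root mean square log2 difference of 0.302 to 0.459 within groups against 0.179 to 0.312 among the others. Replicate 1 was the highest library in all 4 groups for 7 members (16.7%) and the lowest for 5 (11.9%), beside 21.2% and 14.1% of all 12648 genes tested. Excitatory neuron markers of hippocampus were present (Prox1 at 10.7 to 17.6 and Neurod6 at 88.0 to 173 FPKM), but Camk2a was listed at 0 in all 4 WT fructose libraries. The depth of each library is unknown, and in bulk RNA fewer cells of a type and less RNA per cell cannot be told apart.

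The most abundant members were Id2 at a mean of 77.6 FPKM over 16 libraries, the co-repressor Ski at 42.7 FPKM, Id4 at 40.6 FPKM and the activin type I receptor Acvr1b at 30.7 FPKM. Tgfb2 was the leading ligand at 24.5 FPKM, followed by Bmp7 at 9.0 and Bmp6 at 5.83 FPKM, and the other 6 ligands lay between 1.11 and 4.41 FPKM. Among Smads, Smad3 led at 16 FPKM and Smad9 was lowest at 3.43 FPKM. Smad6 was the lowest inhibitor at 1.1 FPKM, close to the filter. Neighbours in this order often overlapped: the libraries of Tgfb2 (18.5 to 30.6 FPKM) and Acvr1b (24.7 to 36.9 FPKM) did.

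**Figure D1:**
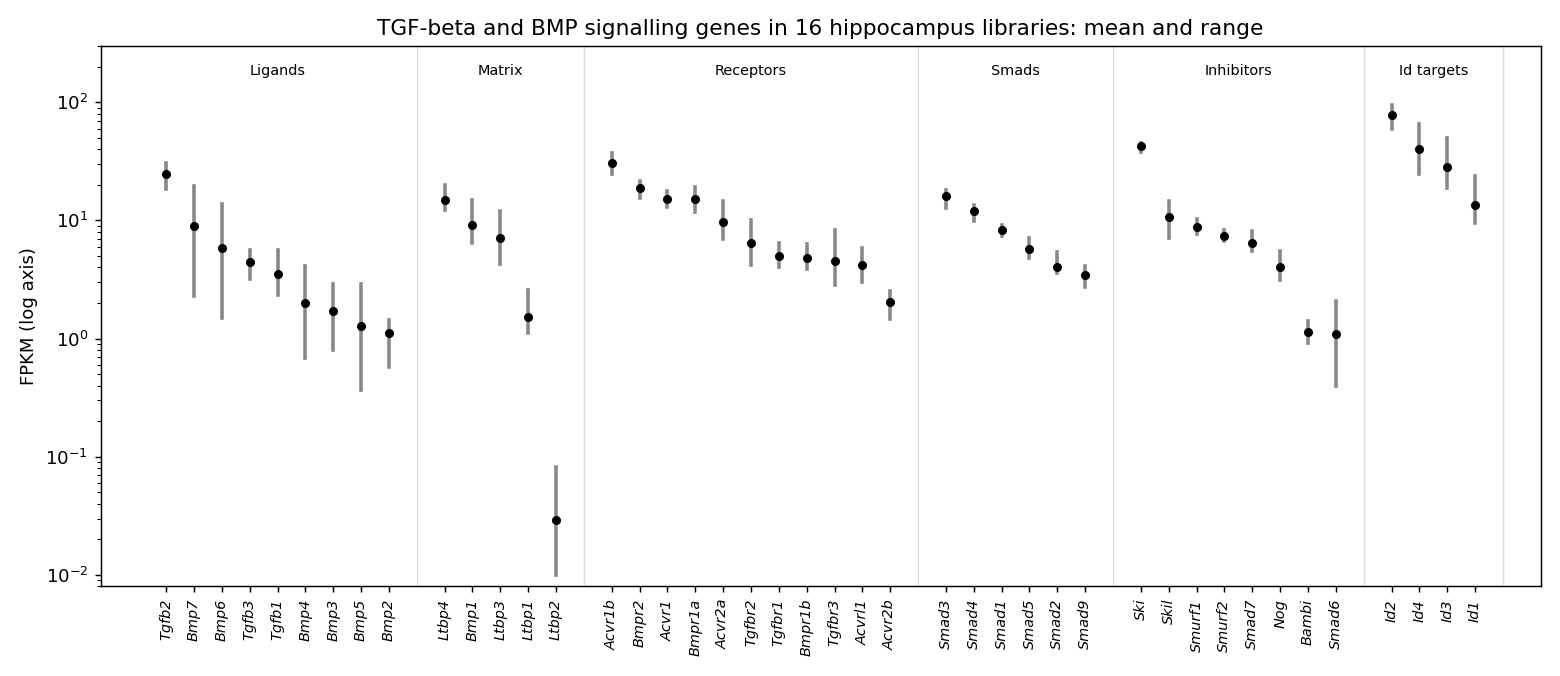
Level of the 43 genes in FPKM on a log axis, grouped by role. Points are means over 16 libraries and bars run from the lowest to the highest library; values of Ltbp2 under 0.01 FPKM are drawn at 0.01. Id2 was highest at 77.6 FPKM and Ltbp2 lowest at 0.03 FPKM.

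The first question was whether loss of Bgn goes with a different level of these genes. On water, 0 of 42 members passed an adjusted p of 0.05 in limma, where 0.387% of all genes did (0.174% higher and 0.213% lower). At an unadjusted p under 0.05 there were 4 members, beside 5.33% of all genes. By sign 29 of 42 members were higher in BgnKO on water, beside 49.4% of all genes, and for 3 members the groups did not overlap, beside 4.01%. On fructose 5 members passed (11.9%), all higher in BgnKO, where 3.76% of all genes passed, 1.63% higher and 2.13% lower. At an unadjusted p under 0.05 there were 14 members, beside 21.3% of all genes. By sign 29 of 42 were again higher, beside 47.5%, and for 8 members the groups did not overlap, beside 11.0%. The higher members on each drink include Bmp2, Bmp5 and Smad6, which passed the filter only through BgnKO. Smad6 is thus also counted among the 5 that passed on fructose, the 8 without overlap there and the 6 averaged below. The 5 were Smad6, Id3, Id1, Bmpr1a and Id2: 3 of 4 Id targets, a BMP type I receptor and a BMP-induced inhibitor. Averaged over both drinks, 6 members passed, where 4.99% of all genes did: the same 5 genes were higher and Tgfb2 was lower, against 2.12% and 2.87% of all genes. With 1 library left out in turn, the averaged call of Id1 was lost in 12 of 16 fits (adjusted p up to 0.0781), that of Bmpr1a in 10 of 16 (up to 0.0743) and that of Id3 in 0 of 16 (up to 0.0243). Averaged, 18 members had an unadjusted p under 0.05, beside 21.1% of all genes, and 28 of 42 were higher by sign, beside 48.1%. The median log2 difference of the 42 members was 0.06 on water, 0.14 on fructose and 0.10 averaged, beside -0.00107, -0.01 and -0.01 for all genes tested. Fold changes are differences of log2(FPKM + 1), which understates low genes such as Smad6.

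Because replicate 1 stood apart, the fructose comparison was also made with a term for replicate 1 and in replicates 2 to 4 alone. Replicate 1 by itself has 1 library a group and gives no test. With the term 11 members passed, where 17.3% of all genes did: the same 5, with Bmp6 (adjusted p = 0.0498), Tgfbr2 (0.31, adjusted p = 0.0405), Tgfbr3 (adjusted p = 0.0437) and Smad5 (adjusted p = 0.00747) higher and Bmp1 (adjusted p = 0.024) and Smurf1 (adjusted p = 0.0406) lower. In replicates 2 to 4 alone 7 passed, where 10.9% of all genes did. Smad6 (adjusted p = 0.0047), Id1 (adjusted p = 0.0172), Id3 (adjusted p = 0.0138) and Bmpr1a (adjusted p = 0.00878) were again among them, with Tgfbr2 (0.38, adjusted p = 0.037) and Smad5 (adjusted p = 0.0261) higher and Smurf1 (-0.26, adjusted p = 0.0255) lower. Id2 (0.33, adjusted p = 0.0651), Bmp6 (0.91, adjusted p = 0.089), Tgfbr3 (0.68, adjusted p = 0.0592), Ltbp1 (0.37, adjusted p = 0.0654) and Bmp1 (-0.39, adjusted p = 0.116) did not pass there. Calls were more frequent over all genes in both settings, so these counts are not read as results about the members.

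**Figure D2:**
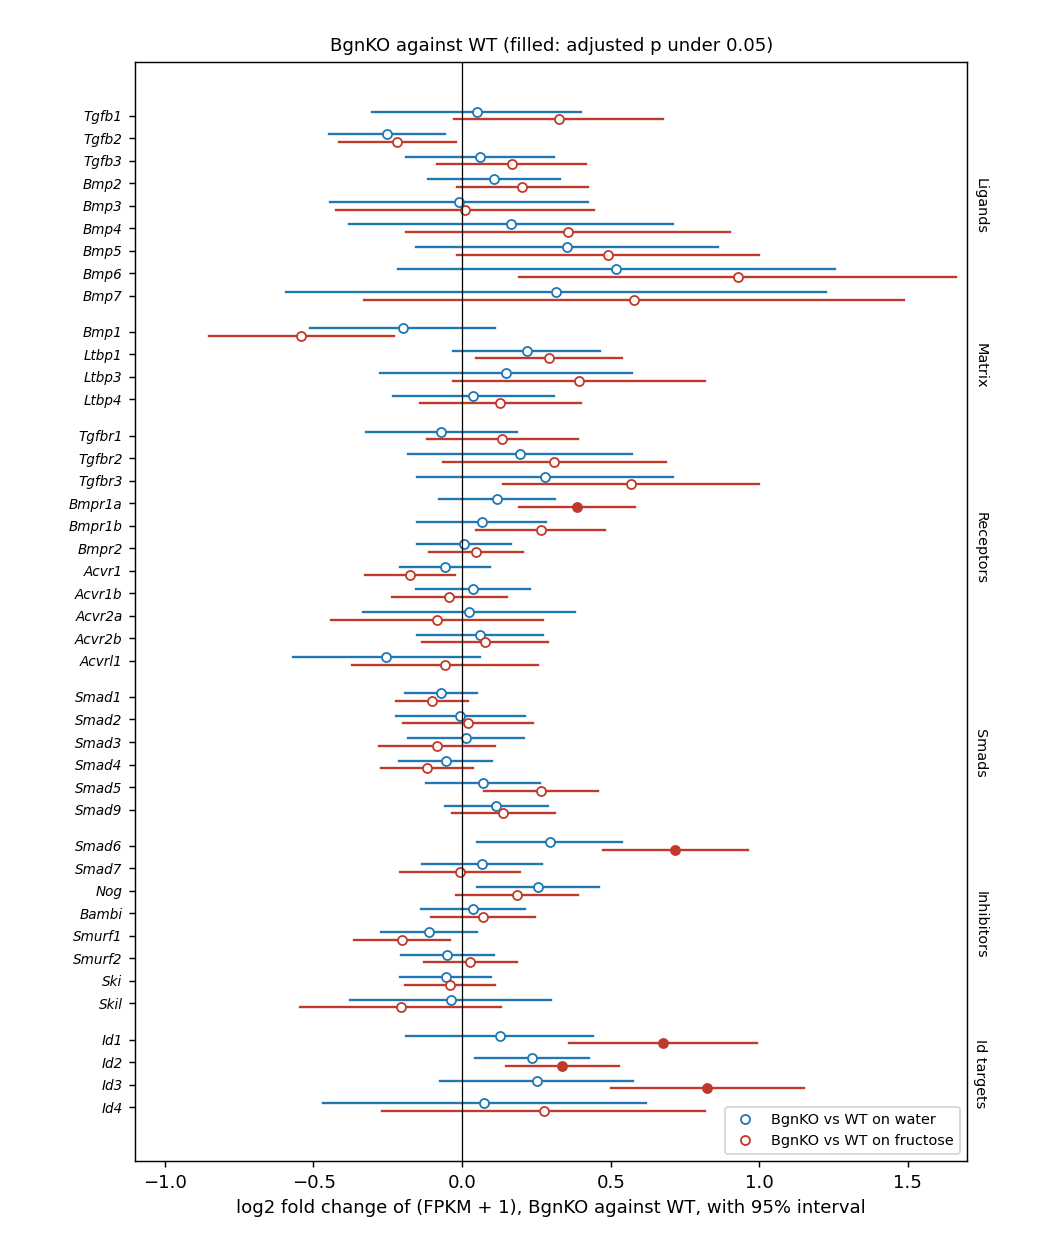
Log2 fold change of FPKM + 1, BgnKO against WT, for the 42 tested genes by role, on water (blue) and on fructose (red). Points are limma estimates with 95% intervals and filled points passed an adjusted p of 0.05. The 5 filled points are Bmpr1a, Smad6, Id1, Id2 and Id3 on fructose.

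Ligands. Of 9 ligands, 8 were higher by sign in BgnKO on fructose and 1 lower, with a median log2 difference of 0.32, and 0 passed the test (limma, 2 at an unadjusted p under 0.05). The 8 include Bmp2 and Bmp5, which passed the filter of 1 FPKM only through BgnKO, the group where they are higher. Tgfb2, the exception in sign, encodes the TGF-beta isoform that led here and lies on chromosome 1 at 186622792 to 186705989. Its libraries read 23.3, 30.6, 23.6 and 23.0 FPKM in WT on water, 29.2, 28.1, 29.6 and 25.6 in WT on fructose, 21.2, 21.0, 22.6 and 18.5 in BgnKO on water and 24.5, 24.97, 21.4 and 25.3 in BgnKO on fructose. On each drink every BgnKO library lay below every WT library, but the WT water libraries without replicate 2 lay in a narrow range close to the BgnKO fructose libraries. The mean fell from 26.6 ± 3.13 FPKM in 8 WT libraries to 22.4 ± 2.36 in 8 BgnKO libraries, a log2 difference of -0.24 (SE 0.07, adjusted p = 0.0498 averaged over drinks in limma). That call was lost in 14 of the 16 fits that left out 1 library, with adjusted p of 0.0462 to 0.0977. Within each drink it was -0.25 on water (adjusted p = 0.598) and -0.22 on fructose (adjusted p = 0.185).

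Bmp6 and Bmp7 encode BMPs and are named here after their values were seen, because their libraries spread most. Bmp6 read 1.49, 4.91, 3.90 and 4.42 FPKM in WT on fructose against 3.95, 10.7, 4.90 and 13.9 in BgnKO on fructose, which overlapped. Its log2 difference on fructose was 0.93 (SE 0.35, adjusted p = 0.137). With a term for replicate 1 Bmp6 had an adjusted p of 0.0498 on fructose. On water the difference was 0.52 (adjusted p = 1). Bmp7 read 2.30, 8.69, 8.56 and 8.79 FPKM in WT and 3.31, 14.0, 10.3 and 19.4 in BgnKO on fructose, a difference of 0.58 (SE 0.43, adjusted p = 0.459). Both were highest in BgnKO fructose replicate 4 and lowest in the library labelled WT fructose replicate 1, the libraries with the highest and lowest meningeal marker sums of 496 and 48.7 FPKM. All 15 meningeal and fibroblast markers were higher by sign in BgnKO on fructose, with 0 passing the test, a range of summed level of 48.7 to 201 FPKM in WT and 89.3 to 496 in BgnKO, and Col1a1, Col1a2 and Lum above 0. All 15 were higher by sign on water too, with a median log2 difference of 0.44 beside 0.39 on fructose, 0 passing and sums of 125 to 249.2 FPKM in WT and 214 to 267 in BgnKO. Their part in the ligand values was not tested. Bmp6 reads also share exons on the opposite strand with Txndc5 (22.7 FPKM), and whether counting used strand is not stated.

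Matrix binders and proteases. Ltbp1, Ltbp3 and Ltbp4 encode latent TGF-beta binding proteins and Bmp1 a procollagen C-proteinase that also processes latent complexes. None of the 4 tested passed a comparison of genotypes in limma with all 16 libraries, no other normalization and no added term. On fructose 2 had an unadjusted p under 0.05. Bmp1 (chromosome 14, 70474558 to 70520234) came closest. It read 14.9, 9.92, 11.9 and 11.4 FPKM in WT on fructose against 7.06, 6.61, 8.63 and 9.52 in BgnKO on fructose. On water it read 8.88, 11.1, 8.44 and 7.53 in WT and 6.47, 8.61, 6.45 and 9.28 in BgnKO. The fructose groups did not overlap and the water groups did. The log2 difference was -0.54 (SE 0.15, adjusted p = 0.0519) on fructose and -0.37 (adjusted p = 0.052) averaged. With a term for replicate 1 the adjusted p was 0.024 on fructose and 0.0258 averaged. Bmp1 also passed as lower with quantile normalization, both on fructose and averaged. It passed on fructose without WT water replicate 2 and without BgnKO water replicate 4. Ltbp1 differed by 0.29 (adjusted p = 0.158) on fructose. With a term for replicate 1 the adjusted p of Ltbp1 was 0.0602 on fructose and 0.0267 averaged. In replicates 2 to 4 alone its averaged adjusted p was 0.0361.

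Receptors. Of 11 receptors 1 passed as higher in BgnKO, Bmpr1a. Bmpr1a encodes the type I BMP receptor ALK3 and lies on chromosome 14 at 34410734 to 34503341. It read 16.2, 14.0, 14.1 and 13.6 FPKM in WT on water and 15.2, 12.4, 11.9 and 12.6 in WT on fructose. In BgnKO it read 17.7, 14.6, 13.8 and 17.1 on water and 17.1, 16.4, 16.5 and 19.1 on fructose. Every BgnKO fructose library was above every WT fructose library, and the water groups overlapped. On fructose the means were 17.3 ± 1.24 and 13 ± 1.47 FPKM, a ratio of 1.33 and a log2 difference of 0.39 (SE 0.09, adjusted p = 0.0307, higher in 4 of 4 libraries). On water the difference was 0.12 (95% interval -0.08 to 0.31). Leaving out replicate 2, 3 or 4 of WT on fructose, or replicate 3 or 4 of BgnKO on fructose, ended the call, with adjusted p of 0.0576 to 0.107. Without the library labelled WT fructose replicate 1 the difference was 0.46 (adjusted p = 0.0166).

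The other 10 receptors did not pass. Bmpr1b, the other BMP type I receptor of this pair, differed by 0.26 (adjusted p = 0.147) on fructose, with groups that did not overlap. Acvr1, also a type I receptor, went the other way on fructose, at 16.2 FPKM in WT and 14.2 in BgnKO, in groups that overlapped. Tgfbr3, which encodes betaglycan, a co-receptor that presents TGF-beta 2, differed by 0.57 (SE 0.20, adjusted p = 0.121, or 0.0437 with a term for replicate 1). The type II receptor Bmpr2 (adjusted p = 0.752) differed by 0.05 on fructose and Acvrl1, an endothelial type I receptor, by -0.06 (adjusted p = 0.859).

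Smads. None of the 6 passed a comparison of genotypes in limma with all 16 libraries and no added term. On fructose 1 had an unadjusted p under 0.05. That was Smad5, a BMP-activated Smad on chromosome 13 at 56703010 to 56742377. It read 6.31, 5.22, 5.22 and 5.47 FPKM in WT on water, 6.18, 5.07, 4.87 and 4.79 in WT on fructose, 6.63, 5.46, 5.52 and 5.91 in BgnKO on water and 7.10, 5.76, 6.00 and 7.08 in BgnKO on fructose. Replicate 1 was the highest of its group each time, and the fructose groups overlapped. The log2 difference on fructose was 0.27 (SE 0.09, adjusted p = 0.106). In replicates 2 to 4 alone it was 0.30 (adjusted p = 0.0261), and with a term for replicate 1 the adjusted p was 0.00747. The TGF-beta Smads Smad2 and Smad3 differed by 0.02 and -0.08 and Smad4 by -0.12 on fructose.

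Inhibitors. Of 8 inhibitors 1 passed as higher in BgnKO, Smad6. Smad6 encodes an inhibitory Smad that acts mainly on BMP signalling and lies on chromosome 9 at 63953076 to 64022059. It averaged 0.731 FPKM in WT and 1.46 in BgnKO and so passed the filter of 1 FPKM only through BgnKO, the group where it is higher. With no filter its fructose difference was 0.72 (adjusted p = 0.00406) and its averaged one 0.51 (adjusted p = 0.00259). It read 0.912, 0.720, 0.780 and 1.05 FPKM in WT on water and 0.401, 0.668, 0.786 and 0.529 in WT on fructose. In BgnKO it read 1.74, 1.14, 1.31 and 1.02 on water and 1.3, 1.62, 1.52 and 2.07 on fructose. The fructose groups were far apart, and on water only BgnKO replicate 4 lay within the WT range. On fructose the means were 1.63 ± 0.326 and 0.596 ± 0.167 FPKM, a ratio of 2.73, with a log2 difference of 0.72 (SE 0.11, adjusted p = 0.00361). On water the ratio was 1.5 and the difference 0.29 (adjusted p = 0.690). Averaged over drinks it was 0.51 (adjusted p = 0.00194), and that call held in every fit with 1 library left out, with adjusted p up to 0.00562. Without the library labelled WT fructose replicate 1 the fructose difference was 0.66 (adjusted p = 0.0116), and without that and BgnKO fructose replicate 4 it was 0.58 (adjusted p = 0.0308). Smad7, the inhibitor of both branches, differed by -0.01 (adjusted p = 0.977) on fructose. Nog, the secreted BMP antagonist noggin, read 4.09 to 5.56 FPKM in BgnKO and 3.25 to 4.00 in WT on water, a difference of 0.26 (adjusted p = 0.643). With a term for replicate 1 Nog had an adjusted p of 0.0347 averaged over drinks. The ubiquitin ligase Smurf1 differed by -0.20 (adjusted p = 0.140, or 0.0406 with that term) on fructose.

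Id targets. All 4 Id genes were higher by sign in BgnKO on each drink, and 3 of them passed as higher than WT among the fructose libraries. Id3 (chromosome 4, 136143497 to 136145755) read 22.3, 25.2, 24.2 and 23.8 FPKM in WT on water and 20.1, 19.1, 26.7 and 19.0 in WT on fructose. In BgnKO it read 32.5, 23.2, 25.6 and 34.4 on water and 31.3, 32.1, 41.8 and 49.8 on fructose. All BgnKO fructose libraries exceeded all WT libraries of either drink. The fructose means were 38.7 ± 8.78 and 21.2 ± 3.66 FPKM, a ratio of 1.82 and a log2 difference of 0.83 (SE 0.15, adjusted p = 0.00977). On water the difference was 0.25 (adjusted p = 1). Without the library labelled WT fructose replicate 1 the fructose difference was 0.81 (adjusted p = 0.0255), and without that and BgnKO fructose replicate 4 it was 0.68 (adjusted p = 0.066).

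Id1 (chromosome 2, 152736251 to 152737410) read 10.6, 11.6, 12.9 and 12.5 FPKM in WT on water and 9.52, 9.63, 11.2 and 12.5 in WT on fructose. In BgnKO it read 15.8, 10.3, 12.5 and 14.2 on water and 14.3, 15.1, 18.6 and 23.9 on fructose. BgnKO on fructose did not overlap with WT on fructose, while the water groups did. The fructose means were 18.0 ± 4.38 and 10.7 ± 1.41 FPKM, a ratio of 1.68 and a log2 difference of 0.68 (SE 0.15, adjusted p = 0.0224). The call was lost without the library labelled WT fructose replicate 1 (0.63, adjusted p = 0.0511), WT fructose replicate 2 (adjusted p = 0.0709) or BgnKO fructose replicate 3 (adjusted p = 0.0594) or 4 (0.54, adjusted p = 0.0656).

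Id2 (chromosome 12, 25093799 to 25097140) read 72.8, 68.9, 71.4 and 59.5 FPKM in WT on water and 72.8, 64.3, 70.5 and 77.7 in WT on fructose. In BgnKO it read 78.1, 74.8, 74.2 and 95.1 on water and 93.3, 84.2, 95.4 and 88.2 on fructose. The groups did not overlap on either drink. The log2 difference was 0.34 (SE 0.09, adjusted p = 0.0495) on fructose, 0.23 (adjusted p = 0.676) on water and 0.29 (adjusted p = 0.0169) averaged. The fructose call was lost in 12 of 16 fits with 1 library left out, and the averaged call in 0 of 16. Without the library labelled WT fructose replicate 1 it was 0.35 (adjusted p = 0.0718). Id4 read 24.9 to 64.9 FPKM over all libraries, with replicate 1 highest in every group, and differed by 0.28 (adjusted p = 0.566) on fructose.

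**Figure D3:**
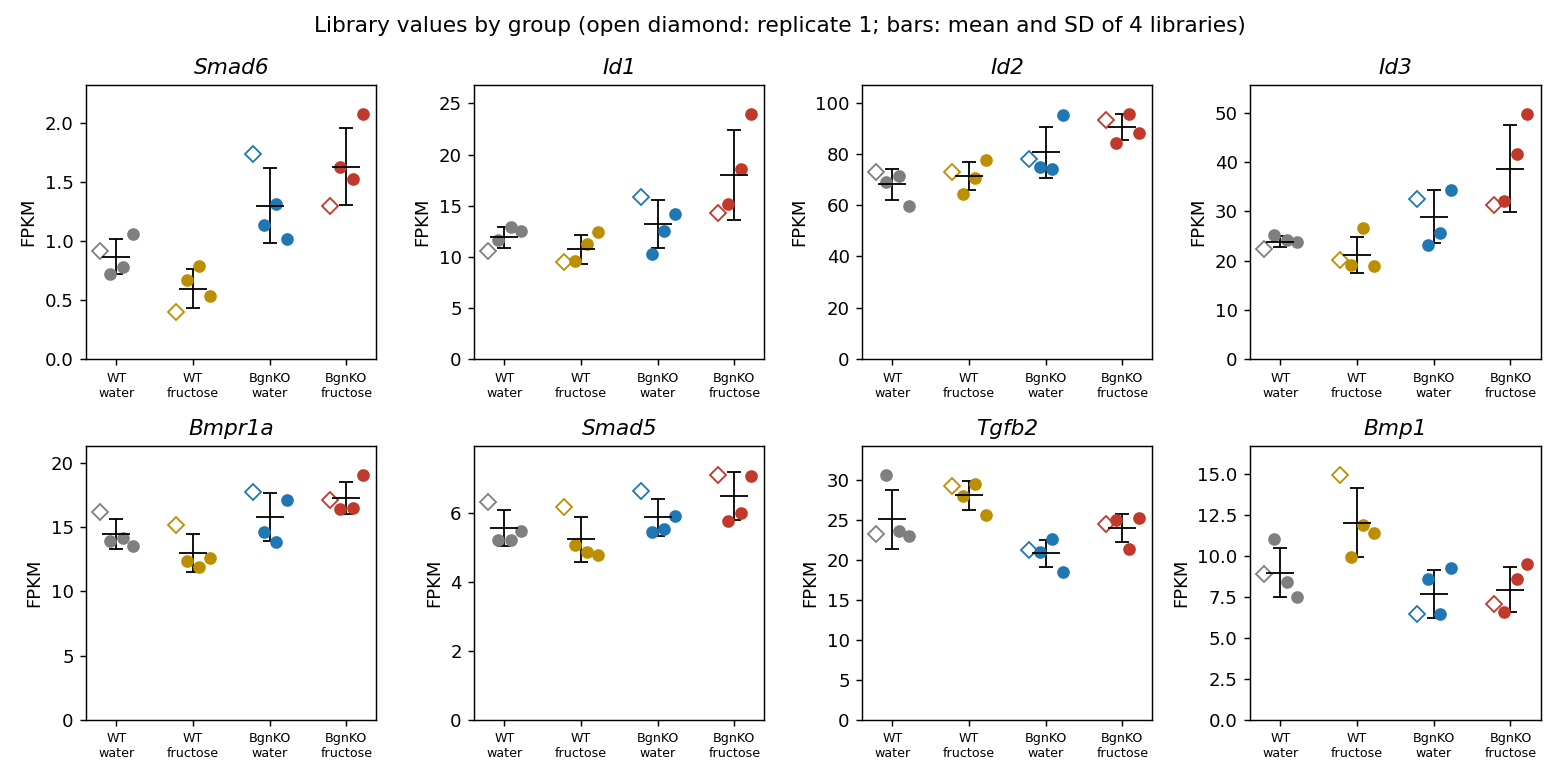
FPKM of 8 members in every library, by group. Open diamonds are replicate 1, filled circles replicates 2 to 4, and bars the mean and SD of 4 libraries; each axis starts at 0. Smad6, Id1, Id2, Id3 and Bmpr1a in BgnKO on fructose lie above all WT fructose libraries, and Bmp1 and Tgfb2 lie below them.

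Markers of several other cell types, though not of all, were mostly higher by sign in BgnKO on fructose. On fructose all 16 astrocyte markers were higher by sign in BgnKO and 4 passed in limma. These were Fgfr3 (0.62, adjusted p = 0.0159), Gja1 (0.42, adjusted p = 0.0297), Gfap (0.58, adjusted p = 0.0409) and Aqp4 (0.54, adjusted p = 0.048). Aldh1l1 did not pass (0.20, adjusted p = 0.386). With 1 library left out in turn the call of Gfap was lost in 9 of 16 fits and that of Aqp4 in 11 of 16. The summed level of the astrocyte markers was 1685 to 1811 FPKM in WT and 1872 to 2556 in BgnKO on fructose, without overlap. On water 15 of 16 were higher and 0 passed, with a median log2 difference of 0.11 beside 0.38 on fructose and sums of 1633 to 1871 FPKM in WT and 1670 to 2443 in BgnKO. All 10 endothelial markers in the table were higher by sign in BgnKO on fructose and 0 passed, with sums of 72.1 to 87.8 against 72.5 to 115 FPKM. For microglia 11 of 12 were higher on fructose and 0 passed, with sums of 219 to 273 against 286 to 372 FPKM, also without overlap. Microglia sums on water were 202 to 260 FPKM in WT and 200 to 368 in BgnKO, which overlapped. For choroid plexus 14 of 14 were higher on fructose and 0 passed, with sums of 239 to 4498 against 2666 to 9292 FPKM. On water 6 of 14 were higher, with a median log2 difference of -0.09, and within WT 0 of 14 were higher on fructose than on water. No defining marker of these lists was at 0. Of pericyte and smooth muscle markers 7 of 10 were higher in BgnKO on fructose, of oligodendrocyte markers 6 of 9 and of interneuron markers 1 of 6, with 0 passing. Of 11 excitatory neuron markers tested, 3 were higher by sign on fructose. Of these 11, Wfs1, a marker of CA1 pyramidal cells, fell (-0.74, adjusted p = 0.00346), and Camk2a passed as higher, for which no fold is given as WT on fructose was listed at 0. In a fit with choroid plexus, meningeal and astrocyte scores as covariates 0 of 42 members passed on fructose, where 0.213% of all genes did. Smad6 then differed by 0.54 (adjusted p = 0.255), Bmpr1a by 0.32, Id2 by 0.30, Id3 by 0.23 and Id1 by 0.10. In a limma fit with the choroid plexus score alone, Smad6 (adjusted p = 0.00999), Id2 (0.0139), Id3 (0.037) and Bmpr1a (0.0429) still passed on fructose. Id1 (adjusted p = 0.0762) did not pass there. The fit that holds the astrocyte score cannot part cell composition from genotype. Astrocyte sums on fructose did not overlap between genotypes, and that score holds Gfap and Aqp4, which passed themselves. The part of cell composition in the genotype differences was not tested.

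**Figure D4:**
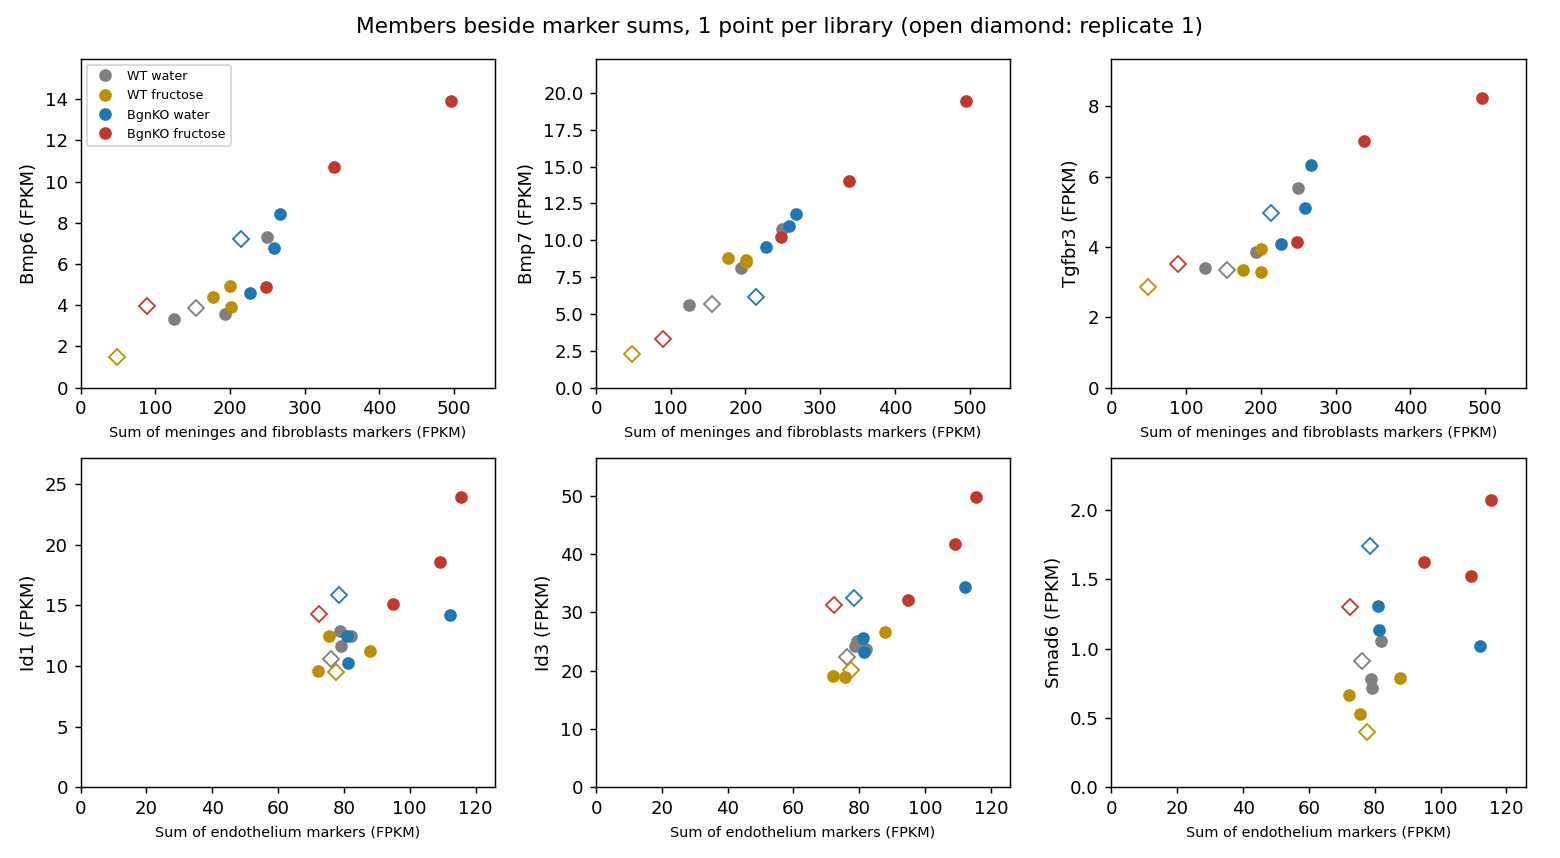
FPKM of 6 members against the summed FPKM of marker genes, 1 point per library, with meningeal and fibroblast markers for Bmp6, Bmp7 and Tgfbr3 and endothelial markers for Id1, Id3 and Smad6. Colours are groups and open diamonds replicate 1. BgnKO fructose replicate 4 has the highest meningeal sum (496 FPKM) and the highest Bmp6, Bmp7 and Tgfbr3.

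The second question was whether fructose goes with a different level within a genotype. In WT 0 of 42 members passed in limma (2 at an unadjusted p under 0.05, beside 2.08% of all genes), where 0.00791% of all genes did. By sign 10 of 42 were higher on fructose, beside 54.3% of all genes. For 1 member the groups did not overlap, beside 1.87% of all genes. Bmpr2 came closest, with 19.99 ± 1.1 FPKM on water and 17.2 ± 1.35 on fructose in groups that did not overlap (log2 difference -0.20, adjusted p = 1). In BgnKO 0 of 42 passed (4 at an unadjusted p under 0.05), where 0.00% of all genes did and 12.9% had an unadjusted p under 0.05. By sign 26 of 42 were higher on fructose, beside 51.8% of all genes. For 1 member, Smurf1 (-0.13, adjusted p = 0.473), the groups did not overlap, beside 3.99% of all genes. The smallest adjusted p was that of Id1, with a difference of 0.41 (adjusted p = 0.318), followed by Id3 at 0.40 (adjusted p = 0.323). Averaged over genotypes 0 of 42 passed in limma (3 at an unadjusted p under 0.05, beside 10.8% of all genes), where 0.00791% of all genes did, and 20 of 42 were higher by sign, beside 54.2%. The smallest adjusted p was that of Bmpr2, with a difference of -0.18 (adjusted p = 0.405). These comparisons share libraries with those of genotype.

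The third question was whether the genotype difference depends on the drink. The interaction was positive for 31 of 42 members, beside 47.7% of all genes, with a median of 0.08. In limma 0 passed (3 at an unadjusted p under 0.05, beside 2.91% of all genes), where 0.00791% of all genes did. The 3 were Id3 (0.57, unadjusted p = 0.0176), Id1 (0.55, unadjusted p = 0.0189) and Smad6 (0.42, unadjusted p = 0.019), each with an adjusted p of 0.999. A larger genotype difference on fructose than on water is therefore not shown for any member.

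Other genes of the pathway, 92 from a separate list with 57 tested, gave 2 higher and 1 lower in BgnKO on fructose, or 5.26%, close to the 3.76% of all genes. Itgb8 (0.48, adjusted p = 0.037) and Itgav (0.37, adjusted p = 0.0431), which encode the integrin pair that releases active TGF-beta from its latent complex, rose. With 1 library left out in turn the call of Itgb8 was lost in 5 of 16 fits (adjusted p up to 0.121) and that of Itgav in 10 of 16 (up to 0.115). Klf10, a gene induced early by TGF-beta, fell (-0.61, adjusted p = 0.0123). Klf10 read 14.7, 10.1, 11.8 and 12.1 FPKM in WT on fructose and 9.70, 7.37, 7.52 and 6.04 in BgnKO on fructose, without overlap. Averaged over drinks Itgav (0.25, adjusted p = 0.0425) and Fstl1 (0.22, adjusted p = 0.0252), a follistatin-like secreted protein, rose, while Klf10 (-0.49, adjusted p = 0.00308) and Junb (-0.53, adjusted p = 0.0114), an immediate early gene that TGF-beta also induces, fell. These were 7.02% of the 57, close to the 4.99% of all genes. The averaged call of Itgav was lost in 13 of 16 fits with 1 library left out (adjusted p up to 0.0841) and that of Fstl1 in 2 of 16, while those of Klf10 and Junb were lost in 0 of 16. On water 0 of 57 passed.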

How the data were processed

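Hippocampus RNA of 16 libraries in 4 groups was measured by RNA-seq. The submitters' processing notes name the mm10 build and the tools TopHat, Bowtie, Cufflinks and Cuffdiff. Versions, strand, annotation and normalization are not given in the sources used here. The authors deposited FPKM for 27670 loci. Of these, 4269 have no gene name (46.8 to 70.4% of a library's FPKM) and were not tested. Loci of the same name were summed (711 names). Whole reads could not be recovered, so depth is unknown and no counting interval is given.

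The 12648 genes that averaged 1 FPKM or more were tested with limma-trend (limma 3.58.1, R 4.3.3) on log2(FPKM + 1). Each group had its own mean and no block was used. There were 7 comparisons, each adjusted by Benjamini and Hochberg over all genes, with a threshold of 0.05. The script was checked on simulated data. Same-number libraries correlated over 0.1 in every pair only for fructose against water (0.118 to 0.699 in WT, 0.197 to 0.612 in BgnKO), which rested on replicate 1; a block changed no call there.

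The members and lists were chosen with earlier results of these data known. Values in every library are given for members that passed in any comparison and, in roles with none, for the member of smallest p on fructose. Positions are GENCODE vM21 (GRCm38), 1-based, and promoters RefSeq GRCm38.p6. Alternatives were other normalizations, pseudocounts and filters, a replicate block, marker scores as covariates and leaving out libraries.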

Additional observations from a re-analysis of the deposited data

Results flagged for a closer look

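In 9 of the 172 groups of 4 libraries that were looked at, 1 library lay far from the other 3. Chance gives about 1 in 20. In WT on water, Tgfb2 read 30.6 FPKM in replicate 2 against 23.0 to 23.6 in the others, Bmp6 read 7.33 FPKM in replicate 4 against 3.32 to 3.87, and Ski read 38.0 FPKM in replicate 1 against 44.7 to 45.2. In WT on fructose, the library labelled replicate 1 read 4.24 FPKM of Tgfbr2 against 6.11 to 6.42, and 2.30 FPKM of Bmp7 against 8.56 to 8.79. Id3 read 26.7 FPKM in WT fructose replicate 3 against 19.0 to 20.1. In BgnKO on water, Acvrl1 read 4.36 FPKM in replicate 4 against 3.31 to 3.47, and Smad7 read 7.41 FPKM in replicate 1 against 6.19 to 6.34. In BgnKO on fructose, Id4 read 59.1 FPKM in replicate 1 against 41.6 to 43.2.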

How the results depend on the processing

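Under the alternatives tried, no called member, nor Bgn, Itgb8, Itgav, Klf10, Fstl1, Junb, Aqp4 or Wfs1, changed sign. Gfap did: with covariates for choroid plexus, meningeal and astrocyte scores, the last of which holds Gfap, it differed by -0.042 (adjusted p = 0.9) on fructose. For BgnKO against WT on fructose, where 5 of 42 members passed, leaving out each library in turn gave 2 to 8 (1.16% to 7.43% of all genes). The filter of 5 FPKM gave 3 (3.47%): Smad6 is then not tested and Id2 had an adjusted p of 0.0517. A term for replicate 1 gave 11 (17.3%), and leaving out both WT fructose replicate 1 and BgnKO fructose replicate 4 gave 2 (1.08%). The choroid plexus, meningeal and astrocyte scores together as covariates gave 0 (0.213%), and fitting the 2 groups alone gave 1, Smad6 (0.688%). Replicates 2 to 4 without BgnKO fructose replicate 4, a setting chosen after seeing the data, gave 2 (2.69%).

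Averaged over drinks, where 6 passed, leaving out each library in turn gave 3 to 12 (3.10% to 8.39% of all genes). A term for replicate 1 gave 15 (18.0%) and replicates 2 to 4 alone gave 12 (12.6%). The same scores together as covariates gave 3 (1.80%), with Smad6 higher and Acvrl1 and Bmp1 lower. On water these scores together gave 1 (0.625%), Acvrl1, which was lower. In these settings, single libraries left out aside, the share of all genes that passed moved the same way as the count of members, and the counts are not read as results about the members. The cause of these changes was not tested.

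With the replicate number as a block, 12 members passed on fructose, where 19.6% of all genes did: the same 5, with Bmp6, Ltbp1, Smad5, Tgfbr2 and Tgfbr3 higher and Bmp1 and Smurf1 lower. Averaged over drinks 15 passed (19.8%), with Bmp5, Bmp6, Ltbp1, Nog, Smad5, Tgfbr2 and Tgfbr3 higher and Bmp1 and Smurf1 lower beside the 6. For these comparisons of genotype same-number libraries correlated from -0.04 to 0.69 on water and from 0.09 to 0.75 on fructose. These ranges do not settle whether the numbers pair libraries. The block changed no other count. With each library left out in turn, Bgn differed by -11.02 to -8.34 FPKM between BgnKO and WT. FPKM hold no depth, so what depth limits cannot be given; Smad6, near 1 FPKM, is the called member of lowest level.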
